A study of Mus musculus with 14 samples.

Results

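The genes described here encode the excitation-contraction coupling machinery and the ion channels of the muscle cell. They are 35 genes, taken by symbol from general knowledge of this machinery, and each was found in exactly 1 row of the 24016 transcripts in the expression table. By role they comprise 7 genes of the voltage sensor, 7 of the calcium release channel and its partners, 3 of the membrane junction, 5 of the calcium pump and its regulators, 4 of the calcium store, 4 of store-operated calcium entry and 5 of membrane excitability. Of the 35, 32 had a mean value of at least 1 over all libraries, as did 14312 transcripts in all, and 28 had a mean of at least 10, as did 11591 in all.

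The cells were C2C12, a mouse myoblast line that fuses into contractile myotubes when growth medium is replaced by medium low in horse serum. They had been transfected with control siRNA (siCtrl) or with a pool of siRNAs against Klf5 (siKlf5), a zinc-finger transcription factor of the Krüppel-like family, and poly(A) RNA was sequenced on days 0, 1, 2 and 3 of differentiation to ask which genes depend on Klf5. There was 1 library per siRNA and day, 8 in all, so that no condition had a replicate. Samples of chromatin immunoprecipitation were not analysed here.

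In skeletal muscle an action potential, carried by voltage-gated sodium channels, spreads along the surface membrane into the transverse tubules. There the L-type calcium channel acts as a voltage sensor that is coupled through its subunits to the ryanodine receptor in the facing membrane of the sarcoplasmic reticulum, so that calcium leaves the store and contraction starts. Calcium pumps of the SERCA family return it to the reticulum, where calsequestrin binds it, and chloride and potassium channels bring the membrane back to rest.

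Values are FPKM as the authors scaled them, with library totals set to 10000000, and thus larger than usual FPKM. They are per exon length, so levels of different genes can be compared as far as length is concerned. Counting was capped at 3 for any position. The effect of this cap on abundant genes, and on libraries of unlike depth, was not tested. The recovered depth was 7850497 to 20301506 reads per library, and siCtrl day 2 was the deepest. Klf5 itself had 224, 381, 614 and 933 in siCtrl cells and 35.1, 160, 192 and 211 in siKlf5 cells on days 0 to 3. Over the 4 days it fell by 1.92 on the log2 scale with the siRNA (SE 0.19, limma adjusted p = 0.0122). Klf5 was not called without limma's mean-variance trend, the filter on low values or a day term, or with any day left out. In those settings limma called 0 of all transcripts. The 9 myogenic markers examined, among them Myod1, Des and Myog, were present in every library and summed to between 2862.5 and 18028 FPKM. Markers of other cells were low, with summed values of 0 to 4.74 for 4 adipocyte genes, 0 to 5.36 for 3 endothelial genes, 0 to 10.3 for 3 osteoblast genes and 6.63 to 24.5 for 3 leukocyte genes. Of the 3 neuronal markers Snap25 was at 0 in all 8 libraries, and the sum of 273 to 704 came almost wholly from Tubb3, which encodes a tubulin. Of the 3 heart markers Nppa was at 0 throughout, and the sum, mostly from Myh6, was 1.53 to 54.4 in siCtrl and 0.879 to 14.5 in siKlf5 cells, a difference whose part in the results was not tested. The 8 genes of the response to transfected RNA summed to 63.9 to 108 in siCtrl and 69.1 to 81.0 in siKlf5 cells. With bulk RNA, fewer cells of a kind and less RNA per cell cannot be told apart.

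The first question was how these genes changed during differentiation. The difference between day 3 and day 0 was tested with limma on log2(FPKM + 1) over all 8 libraries, with the siRNA as a block, so that both siRNA series served as the observations of each day. Nothing in the labels says that the libraries came from independent cultures beyond their siRNA and day, and p-values therefore measure only the spread between these samples, which may be technical. Of the 32 genes tested 23 rose and 1 fell, against 13% of all 14312 transcripts that rose (1865) and 18% that fell (2579). At an unadjusted p under 0.05, 27 of the 32 passed, against 42% of all. After median-ratio scaling the balance over all transcripts was 2230 higher and 1904 lower, and among the 32 genes limma called 25 higher and 0 lower, with 0 lower at an unadjusted p under 0.05 as well. The median log2 change was 1.70 for the 32 genes and -0.08 for all transcripts.

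**Figure D1:**
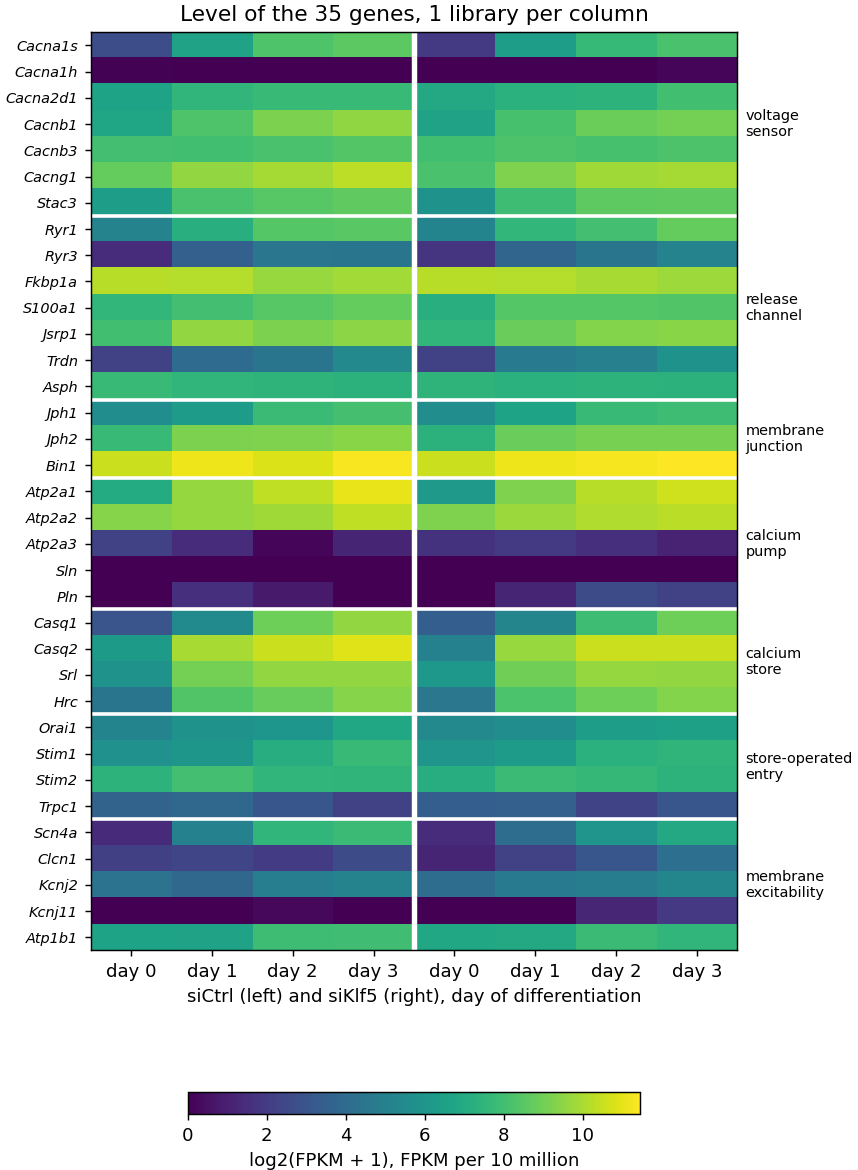
Level of each of the 35 genes (rows, grouped by role) in each library (columns, siCtrl days 0 to 3 on the left and siKlf5 days 0 to 3 on the right), coloured by log2(FPKM + 1). Rows such as Cacna1s, Casq1, Scn4a and Hrc go from dark on day 0 to bright on day 3 in both series, whereas Fkbp1a, Asph and Cacnb3 keep nearly 1 colour and Sln is at 0 in every column.

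Among the genes of the voltage sensor, Cacna1s (NM_014193, plus strand of chromosome 1 of mm9, 137949478 to 138016399), which encodes the pore-forming subunit, started from 66 reads in siCtrl and 31 in siKlf5 cells on day 0. Its FPKM was 5.46, 95.1, 318 and 384 in siCtrl cells and 2.82, 84.8, 205 and 287 in siKlf5 cells on days 0, 1, 2 and 3. Every later library was thus far above both day 0 libraries, and the log2 change from day 0 to day 3 was 6.06 ± 0.19 (SE, limma adjusted p = 5.29e-07). Cacnb1, the beta subunit that binds the pore from the cytoplasm in skeletal muscle, had 104, 309.7, 578 and 743 in siCtrl and 95.4, 274, 469 and 532 in siKlf5 cells. Cacng1, the gamma subunit of the muscle channel, was already at 434 and 285 on day 0 and reached 1269.9 and 968 on day 3 in siCtrl and siKlf5 cells, which was the highest day 3 level in this group in either series. Both rose, by 2.64 ± 0.12 (adjusted p = 2.68e-06) and 1.65 ± 0.13 (adjusted p = 4.87e-05) on the log2 scale. Stac3, an adaptor needed to bring the channel to the junction and couple it there, went from 83.3 to 409 in siCtrl and from 56.4 to 408 in siKlf5 cells and rose by 2.56 ± 0.17 (adjusted p = 1.94e-05). Cacna2d1, the extracellular alpha2delta subunit, changed less, from 99.998 to 219 and from 120.5 to 252, a rise of 1.09 ± 0.17 (adjusted p = 0.00208). Cacnb3, a beta subunit of other tissues, lay between 252 and 331 in all 8 libraries and did not pass the test (log2 change 0.30 ± 0.12, adjusted p = 0.0943). Cacna1h, a T-type channel, had 0.062 in siCtrl day 0 and 0.137 in siKlf5 day 3 and was at 0 in the other libraries.

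Ryr1, the calcium release channel of skeletal muscle (NM_009109, minus strand of chromosome 7, 29788359 to 29910170), had 33.7, 150.3, 349 and 373 in siCtrl and 34.6, 189, 259.7 and 424 in siKlf5 cells. The order of the siRNA series changed from day to day while both series climbed, and Ryr1 rose by 3.50 ± 0.18 on the log2 scale (adjusted p = 5.11e-06). Ryr3, the isoform expressed along with it in immature muscle, was much lower, at 1.73, 10.4, 21.7 and 21.1 in siCtrl and 2.27, 12.5, 20.9 and 33.6 in siKlf5 cells. It made up 4.87% to 7.44% of the sum of both receptors in every library, so that its share stayed in a narrow range while both rose (Ryr3 by 3.21 ± 0.42, adjusted p = 0.000826). Its exons overlap those of Aven on the opposite strand over 889 bases, and since both strands were counted, reads of the pair cannot be told apart there.

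The partners of the release channel did not move as a block. Trdn, which encodes triadin, the anchor between the channel and calsequestrin, went from 3.86 to 40.9 in siCtrl and from 3.625 to 56.0 in siKlf5 cells and rose by 3.37 ± 0.37 on the log2 scale (adjusted p = 0.000331). Jsrp1, a junctional protein also called JP-45, had 255, 774, 578 and 702 in siCtrl and 184, 454, 639 and 691 in siKlf5 cells, and rose by 1.68 ± 0.20 (adjusted p = 0.000478). In siCtrl cells it was thus highest on day 1, and in siKlf5 cells on day 3. S100a1, a small calcium-binding protein that acts on the release channel, rose by 1.15 ± 0.19 (adjusted p = 0.00268). Fkbp1a, the immunophilin FKBP12 that binds the channel and is made by most cells, had 1192, 1158, 833 and 944 in siCtrl and 1182, 1173, 982 and 864 in siKlf5 cells. It was the 1 gene called lower on day 3 (log2 change -0.39 ± 0.12, adjusted p = 0.0339), and this call was lost with median-ratio scaling (-0.28), upper-quartile scaling (-0.29), no mean-variance trend, no filter on low values, or day 1 left out. Asph lay between 159.6 and 219 and was not called (log2 change -0.26, adjusted p = 0.168). The gene gives rise to both junctin and an aspartyl hydroxylase, and the 1 transcript kept for it does not separate them.

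Of the genes of the membrane junction, Jph2 and Jph1 encode junctophilins, which span the gap between the surface membrane and the reticulum. Jph2 had 216, 582, 607 and 691 in siCtrl and 161, 454, 547 and 547 in siKlf5 cells, and thus reached 84.3% of its siCtrl day 3 level by day 1. Jph1 had 47.5, 78.3, 225 and 273 in siCtrl and 47.8, 100.1, 207 and 238 in siKlf5 cells, and its largest step was that from day 1 to day 2. The rise from day 0 to day 3 was 1.72 ± 0.11 for Jph2 (adjusted p = 1.63e-05) and 2.40 ± 0.16 for Jph1 (adjusted p = 2.66e-05). Bin1, a protein that bends membranes into transverse tubules, had 1472, 2267, 1843 and 2582 in siCtrl and 1498, 2293.5, 2515 and 2807 in siKlf5 cells, the highest level of the 35 genes in each of the 8 libraries. It rose by 0.86 ± 0.14 (adjusted p = 0.00235). The 1 transcript kept for Bin1 does not separate its muscle form from the others.

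The pump genes exchanged places between day 0 and day 2. Atp2a1, which encodes SERCA1 of fast fibres (NM_007504, minus strand of chromosome 7, 133589374 to 133606587), had 133, 803, 1327 and 2172 in siCtrl and 72.5, 597, 1186 and 1599 in siKlf5 cells. Atp2a2, which encodes the SERCA2 of slow and heart muscle and of non-muscle cells, had 662, 793, 912 and 1295.5 in siCtrl and 612, 844, 1082 and 1238 in siKlf5 cells. The share of Atp2a1 in the sum of both went from 16.7% on day 0 to 50.3%, 59.3% and 62.6% on days 1, 2 and 3 in siCtrl cells, and from 10.6% to 41.4%, 52.3% and 56.4% in siKlf5 cells. It was lower in siKlf5 than in siCtrl cells on each day, and a difference of shares between single libraries has no test. Both genes rose, Atp2a1 by 4.23 ± 0.16 (adjusted p = 1.1e-06) and Atp2a2 by 0.99 ± 0.12 (adjusted p = 5e-04). The exons of Atp2a1 overlap those of Rabep2 on the other strand over 494 bases.

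The small regulators of the pump were almost absent. Sln, which encodes sarcolipin, was listed at 0 in all 8 libraries. Pln, which encodes phospholamban, had 0, 1.99, 0.76 and 0 in siCtrl and 0, 1.28, 5.26 and 3.80 in siKlf5 cells, and Atp2a3, a SERCA of non-muscle cells, lay between 0.132 and 3.84. Neither Pln (log2 change 1.13, adjusted p = 0.397) nor Atp2a3 (-0.84, adjusted p = 0.453) passed the test between day 3 and day 0.

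All 4 genes of the calcium store rose. Hrc, a histidine-rich protein of the reticulum that binds calcium, had 20.8, 328, 449 and 669 in siCtrl and 22.2, 293, 483 and 641 in siKlf5 cells, a change of 4.87 ± 0.12 (adjusted p = 2.35e-07). The siRNA series lay close together on each day, and no other of the 32 genes had a lower p. Srl, which encodes sarcalumenin, was at 56.0 and 66.9 on day 0, at 525 and 496 on day 1, at 772 and 799 on day 2 and at 779 and 773 on day 3 in siCtrl and siKlf5 cells, and thus levelled off after day 2. It rose by 3.64 ± 0.11 (adjusted p = 5.05e-07).

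The calsequestrins, the main calcium-binding proteins of the store, both rose. Casq2, the isoform of heart and slow fibres, had 75.8, 980.4, 1503 and 1929 in siCtrl and 31.5, 824, 1473 and 1492 in siKlf5 cells. Casq1, the isoform of fast fibres (NM_009813, minus strand of chromosome 1, 174140025 to 174150026), had 7.10, 43.6, 486 and 766 in siCtrl and 9.615, 35.9, 239.7 and 479 in siKlf5 cells. Casq2 had thus reached 50.8% of its siCtrl day 3 level on day 1, when Casq1 was at 5.69% of its own. Casq1 nonetheless rose from day 0 to day 1 as well (2.13 ± 0.29, adjusted p = 0.0023), and the difference in timing between the isoforms was not tested. From day 0 to day 3 the log2 change was 5.09 ± 0.24 for Casq2 (adjusted p = 3.48e-06) and 6.03 ± 0.29 for Casq1 (adjusted p = 3.87e-06). The share of Casq1 in the sum of both was 8.57%, 4.26%, 24.4% and 28.4% in siCtrl and 23.4%, 4.17%, 14.0% and 24.3% in siKlf5 cells, so that it was lowest on day 1 in both series. On day 0, however, the shares rest on only 26 Casq1 reads in siCtrl and 32 in siKlf5 cells. Exons of Casq1 overlap the noncoding Gm17224 on the other strand over 156 bases, and those of Ryr1 overlap Gm16799 over 108.

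The genes of store-operated entry, by which an emptied store opens a calcium channel in the surface membrane, split. Stim1, the calcium sensor of the reticulum, had 54.5, 66.3, 140.3 and 208 in siCtrl and 61.2, 76.4, 158 and 181 in siKlf5 cells and rose by 1.73 ± 0.16 (adjusted p = 0.00013). Orai1, the channel that it opens, had 34.8, 55.6, 63.1 and 111 in siCtrl and 41.6, 47.8, 81.3 and 91.2 in siKlf5 cells and rose by 1.38 ± 0.23 (adjusted p = 0.00244). Stim2, the second sensor, was highest on day 1, at 257 and 223, and did not pass the test between day 3 and day 0 (0.15, adjusted p = 0.418). Stim1 was below Stim2 on days 0 to 2 in every library and above it on day 3 in both series. Trpc1, a channel subunit linked to this pathway, had 11.4, 13.3, 7.35 and 3.58 in siCtrl and 9.89, 10.3, 4.12 and 7.265 in siKlf5 cells, and its change was not called (-0.92, adjusted p = 0.24).

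Of the genes of membrane excitability, Scn4a, which encodes the sodium channel of the muscle action potential (NM_133199, minus strand of chromosome 11, 106179907 to 106210704), had 1.55, 31.6, 186 and 224 in siCtrl and 1.70, 16.3, 60.9 and 119.5 in siKlf5 cells. It rose in both series, by 5.97 ± 0.39 on the log2 scale (adjusted p = 2.01e-05). Atp1b1, the beta subunit of the sodium pump, had 98.0, 95.8, 240.15 and 245 in siCtrl and 117, 119, 224 and 184 in siKlf5 cells, and rose by 0.98 ± 0.19 (adjusted p = 0.00484). The channels of the resting membrane stayed low. Clcn1, the chloride channel of mature fibres, had 3.47, 4.21, 2.96 and 5.13 in siCtrl and 1.27, 3.83, 7.31 and 17.0 in siKlf5 cells (log2 change 1.72, adjusted p = 0.11). Kcnj2, the inward rectifier Kir2.1, lay between 13.3 and 37.1 (0.95, adjusted p = 0.0763). Kcnj11, the pore of the ATP-sensitive potassium channel, was at 0 in 5 libraries and at most 2.69 in siKlf5 day 3.

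In the single series, 21 of the 32 genes were at least 2-fold higher on day 3 than on day 0 in siCtrl cells, against 14.3% of all transcripts, and 24 were in siKlf5 cells, against 13.8% of all. No test applies to a pair of single libraries. The median log2 change of the 32 genes was 1.60 in siCtrl and 1.83 in siKlf5 cells, beside -0.06 and -0.07 for all transcripts.

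**Figure D2:**
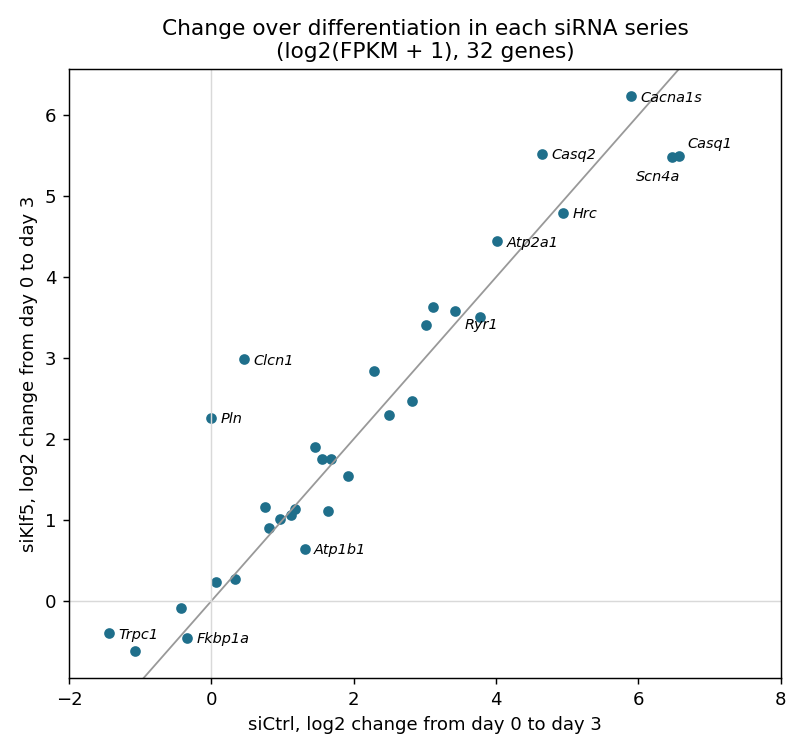
Change of each of the 32 genes from day 0 to day 3 on the log2(FPKM + 1) scale, in siCtrl cells (x axis) and siKlf5 cells (y axis), with the line of equal change; each point is 1 gene. Most points lie near the line, Casq1 (6.57 and 5.50) and Scn4a (6.47 and 5.48) lie below it, and Casq2 (4.65 and 5.52), Clcn1 (0.46 and 2.98) and Pln (0.00 and 2.26) lie above it.

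The steps between neighbouring days showed when the genes moved. From day 0 to day 1, 20 of the 32 genes rose, against 6.76% of all transcripts. In this step limma called 0 of the 32 lower without the trend, beside 434 of all transcripts, and 0 with it, against 10.3% of all. At an unadjusted p under 0.05, 21 passed, all higher, against 31% of all. The balance over all transcripts, 967 higher and 1477 lower, became 1199 and 1013 with median-ratio scaling. The largest of these first steps were those of Cacna1s (4.19 ± 0.19, adjusted p = 8.46e-06), Casq2 (4.17 ± 0.24), Hrc (3.79 ± 0.12) and Scn4a (3.18 ± 0.39, adjusted p = 0.0014). Stim2 also rose in this step (0.62 ± 0.13, adjusted p = 0.0133), although not over the whole course. From day 1 to day 2, 9 genes rose, against 1.22% of all transcripts, and limma called 0 lower, against 0.468%. At an unadjusted p under 0.05, 15 were higher and 2 lower, against 19.5% of all in either direction. The 2 lower ones were Fkbp1a (-0.37) and Stim2 (-0.315). The 9 genes called after adjustment were Casq1, Jph1, Cacna1s, Cacnb1, Stim1, Atp1b1, Scn4a, Atp2a1 and Srl. The largest step was that of Casq1, of 3.08 ± 0.29 (adjusted p = 0.00833). Without the trend limma called 0 of all 14312 transcripts in this step, and thus none of the 32 genes. In that setting 13 of the 32 were higher at an unadjusted p under 0.05, beside 2263 of all transcripts in either direction. Stim1 and Atp1b1 rose in this step and were not called in the one before. From day 2 to day 3 limma called 0 of the 32 genes in either direction, and 5 of all transcripts, all lower (0.0349%). At an unadjusted p under 0.05, 7 of the 32 were higher in this last step, among them Hrc (0.49 ± 0.12) and Atp2a1 (0.57 ± 0.16). Over all transcripts 6.92% passed it in either direction. Without the trend 3 of the 32 were higher, beside 844 of all transcripts in either direction.

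The second question was whether these genes differed between siKlf5 and siCtrl cells. In the fit over all 4 days, with the day as a block, limma called 0 of the 32 genes, against 9 of 14312 transcripts called lower (0.0629%) and 1 called higher (0.00699%). At an unadjusted p under 0.05, 7 of the 32 passed, all lower in siKlf5 cells, against 9.9% of all transcripts in either direction. Without the mean-variance trend limma called 0 of all 14312 transcripts. In that setting 5 of the 32 were lower at an unadjusted p under 0.05, beside 1211 of all transcripts in either direction. The 7 genes were Atp2a1 (-0.47 ± 0.11, adjusted p = 0.223), Jph2 (-0.32 ± 0.08, adjusted p = 0.229), Cacng1 (-0.37 ± 0.09, adjusted p = 0.229), Cacna1s (-0.49 ± 0.14, adjusted p = 0.298), Cacnb1 (-0.27 ± 0.08, adjusted p = 0.346), Scn4a (-0.83 ± 0.28, adjusted p = 0.384) and Casq2 (-0.47 ± 0.17, adjusted p = 0.428). With day 0 left out the difference was -0.22 for Casq2, -0.34 for Atp2a1, -0.28 for Jph2, -0.29 for Cacng1 and -0.40 for Cacna1s. For Cacnb1 it was -0.32 and for Scn4a -1.14, both further from 0 than with all days. The 7 genes include Cacna1s, Cacnb1 and Cacng1 of the voltage sensor. In the same group Stac3 (-0.18), Cacna2d1 (-0.03) and Cacnb3 (-0.0045) did not pass, and neither did Ryr1 (0.03) or Ryr3 (0.27). The median difference over the 32 genes was -0.01 and that over all transcripts 0.01.

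Of the 32 genes 6 (18.8%) were lower in the siKlf5 library on each of the 4 days, beside 9.03% of all transcripts, and 1, Bin1, was higher on each day, beside 9.05% of all. The 6 were the genes just named other than Scn4a, an overlap that follows in large part from their having been picked as lower over the same libraries. Cacna1s in siKlf5 cells stood at 51.7%, 89.2%, 64.6% and 74.7% of the siCtrl value on days 0 to 3. Atp2a1 stood at 54.5%, 74.4%, 89.4% and 73.6%, and Cacng1 at 65.8%, 76.8%, 92.4% and 76.2%. For Casq2 the values were 41.6%, 84.0%, 98.1% and 77.4%. On day 2, where Atp2a1, Cacng1 and Casq2 came closest to the control, the 981 most abundant transcripts, of mean 500 or more, had a median log2 ratio of siKlf5 to siCtrl of 0.20, and the 8 of the 32 genes in that class had 0.10. Whether this shift of abundant transcripts bears on the day 2 values was not tested.

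**Figure D3:**
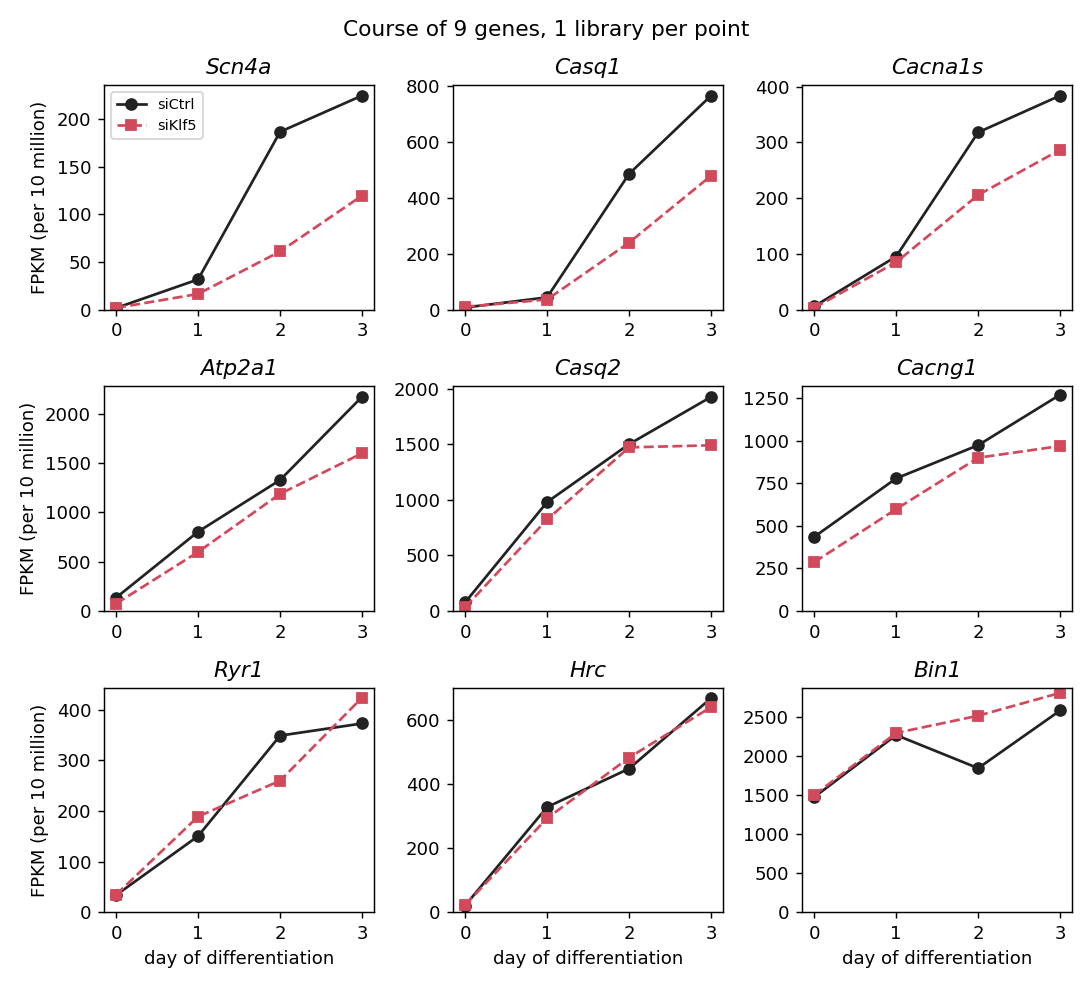
FPKM of 9 of the genes on days 0 to 3 in siCtrl cells (circles, solid line) and siKlf5 cells (squares, dashed line), 1 library per point, each axis starting at 0. Scn4a and Casq1 in siKlf5 cells lie below siCtrl cells on days 1 to 3, Cacna1s, Atp2a1, Casq2 and Cacng1 lie below on every day, Hrc runs together in both series, and Ryr1 and Bin1 end higher in siKlf5 cells.

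Scn4a and Casq1 had the largest reductions on days 2 and 3. With 1 library per siRNA and day these ratios have no replicate check, and the 95% exact binomial (Clopper-Pearson) intervals given with them, computed on reads divided by 6 because reads came in clumps, cover counting error only. Clumping was less marked in siCtrl day 2, and how well the divisor fits that library was not tested. For Scn4a the log2 ratio was 0.09 on day 0, where 20 reads were counted in each library, then -0.91 on day 1 (-1.74 to -0.20), -1.60 on day 2 (-1.90 to -1.34) and -0.90 on day 3 (-1.14 to -0.68). The siKlf5 cells had 32.7% of the siCtrl level on day 2 and 53.25% on day 3, and their day 3 value of 119.5 was below the siCtrl value of 186 of the day before. For Casq1 the ratio was 0.39 on day 0, from 26 reads in siCtrl and 32 in siKlf5 cells. It was -0.27 on day 1 (-1.39 to 0.80), -1.02 on day 2 (-1.30 to -0.75) and -0.68 on day 3 (-0.90 to -0.46). The Casq1 value in siKlf5 cells on day 3, 479, was close to the siCtrl value of 486 on day 2. Neither of these comparisons across days was tested. In the fit over the 4 days Casq1 was not called (-0.39 ± 0.21, limma adjusted p = 0.571).

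Counted day by day, the genes past a 1.5-fold difference were few. On day 0, 5 of the 32 were lower in siKlf5 cells, against 10% of all transcripts, and 0 were higher, against 8.18%. The 5 were Casq2 (-1.24), Clcn1 (-0.98), Atp2a1 (-0.87), Cacna1s (-0.76) and Cacng1 (-0.60). On day 1, 2 were lower (Scn4a and Jsrp1, -0.77) and 2 higher (Kcnj2, 0.83, and Trdn, 0.80), against 10.3% and 15.6% of all. On day 2, 4 were lower (Scn4a, Casq1, Trpc1, -0.71, and Cacna1s, -0.63), against 11.6%, and 3 were higher (Pln, Atp2a3 and Clcn1), against 6.78%. With either of the scalings tried 3 were lower on day 2. On day 3, 2 were lower, Scn4a and Casq1, against 11.6%, and 4 were higher, against 9.9%. The shares of the 32 genes were thus 0% to 15.6%, beside 6.78% to 15.6% for all transcripts. The median log2 ratio of the 32 genes was -0.09, -0.16, -0.04 and -0.10 on days 0 to 3, beside 0.00, 0.03, -0.03 and 0.00 for all transcripts, and the day 2 median turned to 0.01 with median-ratio or upper-quartile scaling.

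The 4 genes higher on day 3 were lowly expressed. Ryr3 had 21.1 in siCtrl and 33.6 in siKlf5 cells, a log2 ratio of 0.65 (0.31 to 1.04). Clcn1 had 5.13 and 17.0, from 37 and 107 reads, a ratio of 1.55 (0.34 to 3.33), and Trpc1 had 3.58 and 7.265, from 22 and 39 reads, a ratio of 0.85. Pln was listed at 0 in siCtrl and at 3.80 in siKlf5 cells, so no fold is given. With a mean of at least 10 required, 1 of the 4, Ryr3, was left.

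**Figure D4:**
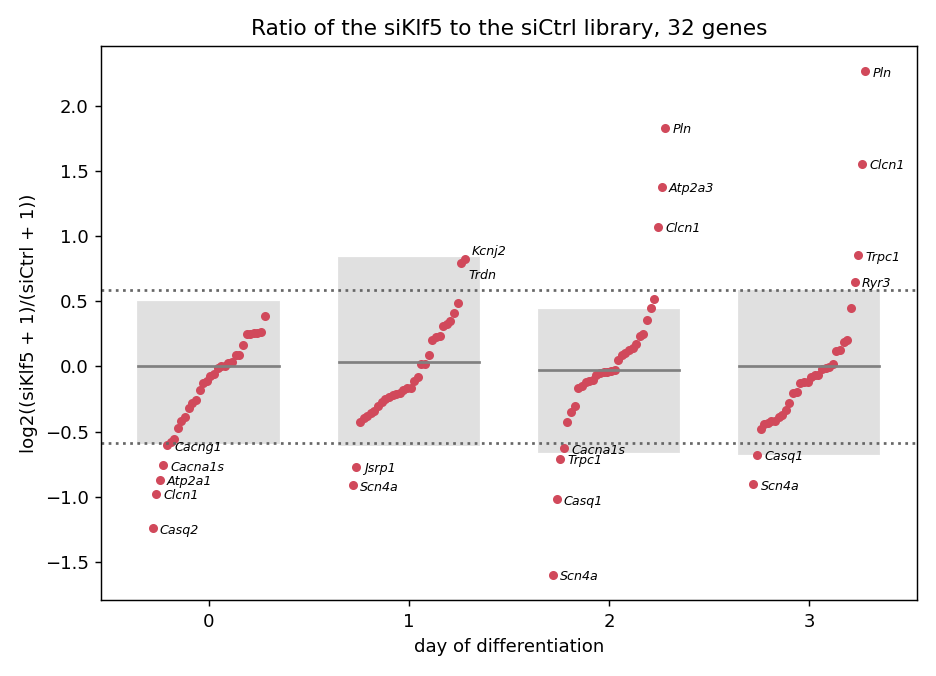
Log2((siKlf5 + 1)/(siCtrl + 1)) of each of the 32 genes on each day, ordered by size within the day, with 1.5-fold as dotted lines and the 10th to 90th percentile of all 14312 transcripts as a grey box with its median. Most genes lie inside the boxes, and Scn4a reaches -1.60 on day 2; Pln is drawn at 2.26 on day 3 although its siCtrl value was 0.

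For several genes the counting error was small and the day 3 difference was near 0. The interval of the log2 ratio on day 3 was -0.13 to 0.10 for Srl, -0.24 to 0.12 for Hrc, -0.27 to 0.27 for Stac3 and -0.16 to 0.03 for Atp2a2. Ryr1 was lower in siKlf5 cells on day 2 (-0.42, interval -0.52 to -0.33) and higher on days 1 (0.33, 0.16 to 0.50) and 3 (0.19, 0.09 to 0.28). Such swings between single libraries exceeded counting error and have no replicate behind them. Whether the siRNA difference changed over the days was tested as a linear slope, an alternative added after the data were seen. By limma 0 of 14312 transcripts were called, and 4 of the 32 genes passed an unadjusted p under 0.05, against 4.9% of all. The slope of the log2 difference per day was -0.39 ± 0.13 for Casq1, -0.24 ± 0.09 for Atp1b1, 0.28 ± 0.12 for Casq2 and 0.21 ± 0.08 for Stac3 (adjusted p = 0.883 for Casq1 and higher for the others).

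Stage markers stood beside these values as follows. In the fit over 4 days Myog, a transcription factor of early differentiation, had a log2 difference of -0.46 ± 0.10 (adjusted p = 0.181), and Myh3, embryonic myosin heavy chain, one of 0.06 ± 0.09 (adjusted p = 0.852). The summed level of the 9 myogenic markers was 3435, 14077, 13874 and 18028 in siCtrl and 2862.5, 13473, 16714 and 16905 in siKlf5 cells. On day 2 the 981 transcripts of mean 500 or more had a median log2 ratio of siKlf5 to siCtrl of 0.20. The part of this shift of abundant transcripts in the marker sums was not tested. The part of a different stage in the differences of single genes was not tested.

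Other genes of the same pathway were tested in the same fits. Of 77 further genes, all in the table, 53 had a mean of at least 1. From day 0 to day 3, 22 of them rose and 8 fell, beside 13% and 18% of all transcripts. The counts were 25 and 4 with median-ratio scaling, 25 and 5 with upper-quartile scaling, 17 and 3 without the trend, and 13 and 2 of all 77 with no filter on low values. Those that rose included Tmem38a, a potassium channel of the reticulum (3.28 ± 0.15, adjusted p = 2.58e-06), and Dysf, which encodes dysferlin (3.67 ± 0.30). Between siKlf5 and siCtrl cells limma called 0 of the 53, beside 10 of all 14312 transcripts. At an unadjusted p under 0.05, 8 were lower and 0 higher, beside 9.9% of all in either direction. Without the trend 5 were lower at that limit, beside 1211 of all in either direction. With a mean of at least 10 required, 1 of 44 was called lower, beside 18 of 11591. On day 3, 12 of the 53 were lower by more than 1.5-fold and 4 were higher, beside 11.6% and 9.9% of all transcripts.

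Of these other pathway genes, 6 with a mean of at least 10 passed 1.5-fold with the same sign on days 2 and 3. Of the 6, 5 were lower. The share of all transcripts that passed the same rule was not counted. The 6 were picked by ratios of the same libraries, so their differences over the 4 days are not separate evidence. Cav3, the caveolin of muscle that takes part in transverse tubule formation, had 3.53, 56.8, 217 and 316 in siCtrl and 2.91, 17.6, 95.9 and 119 in siKlf5 cells (over 4 days -1.11 ± 0.24, adjusted p = 0.195). Camk2a, a calcium-dependent kinase, had 13.8, 51.8, 188 and 245 in siCtrl and 3.44, 30.3, 71.4 and 91.9 in siKlf5 cells (-1.32 ± 0.19, adjusted p = 0.0682). Fkbp1b, the paralog of Fkbp1a, had 23.5, 34.4, 39.1 and 28.5 in siCtrl and 4.02, 4.62, 8.98 and 14.9 in siKlf5 cells (-1.96 ± 0.34, adjusted p = 0.117). Each of these was lower in siKlf5 cells on all 4 days, beside 9.03% of all 14312 transcripts, after being picked by days 2 and 3. Kcnj12, another inward rectifier, had 43.1 in siCtrl and 20.2 in siKlf5 cells on day 3, and Atp1b2, another sodium pump subunit, had 48.3 and 9.08. Pvalb, the calcium buffer of fast fibres, went the other way, with 3.44, 7.92, 32.9 and 74.9 in siCtrl and 0, 60.1, 133.5 and 447 in siKlf5 cells (1.29 ± 0.72, adjusted p = 0.593).

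The sequences around the transcript starts of Scn4a, Casq1 and Cacna1s are shown because these genes had the 3 largest rises and were all lower by more than 1.5-fold in siKlf5 cells on day 2. MyoD and myogenin bind E-boxes, with the letters CANNTG, and Krüppel-like factors bind GC-rich and CACCC elements. Each window runs from 250 bases before the RefSeq transcript start to 50 bases from it, read from the mm9 genome and written 5′ to 3′ along the gene. Capitals mark CANNTG. They also mark the GC-rich letters CCGCCC, read as GGGCGG where they lie on the other strand. Last, they mark the shorter element CACCC, which then reads as GGGTG. Matches of different motifs may overlap, and any in the last 50 bases lie within the transcript.
Scn4a (mm9 chr11:106210655-106210954, minus strand): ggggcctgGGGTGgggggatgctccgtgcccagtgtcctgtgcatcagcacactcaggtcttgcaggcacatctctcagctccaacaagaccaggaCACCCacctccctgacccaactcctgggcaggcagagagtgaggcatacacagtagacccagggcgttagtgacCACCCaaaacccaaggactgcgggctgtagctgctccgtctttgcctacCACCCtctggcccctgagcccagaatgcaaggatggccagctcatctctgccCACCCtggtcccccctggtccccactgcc
Casq1 (mm9 chr1:174149977-174150276, minus strand): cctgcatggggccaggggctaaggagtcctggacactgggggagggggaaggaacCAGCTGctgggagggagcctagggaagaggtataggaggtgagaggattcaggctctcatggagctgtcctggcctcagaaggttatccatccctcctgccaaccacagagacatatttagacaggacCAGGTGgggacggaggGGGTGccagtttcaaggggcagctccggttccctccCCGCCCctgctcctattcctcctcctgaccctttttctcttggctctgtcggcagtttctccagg
Cacna1s (mm9 chr1:137949228-137949527, plus strand): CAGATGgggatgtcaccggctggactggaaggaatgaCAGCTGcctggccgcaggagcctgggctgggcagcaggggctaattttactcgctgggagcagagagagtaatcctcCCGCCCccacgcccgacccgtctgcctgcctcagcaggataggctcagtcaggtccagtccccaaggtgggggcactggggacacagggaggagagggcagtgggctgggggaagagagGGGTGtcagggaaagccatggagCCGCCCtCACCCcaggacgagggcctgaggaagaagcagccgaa

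The Scn4a window held no CANNTG and 5 CACCC, that of Casq1 held CANNTG at positions -195 and -67 from the transcript start, and that of Cacna1s at -250 and -213. GENCODE places the starts of Scn4a and Cacna1s further upstream, at 106214602 and 137949327, so other windows could be drawn for them. The GENCODE start of Scn4a lies outside the window shown, and motifs before that start were not counted. The lack of CANNTG in the Scn4a window thus does not describe the sequence there. Among the 23950 transcripts for which such a window was read, CANNTG was present in 68.9%, and in 71.4% of the 35 genes. The E-box CAGCTG, which is one of the CANNTG forms, was present in 16% of all windows and in 45.7% of the 35 (16 genes), in 11 of the 23 genes that rose from day 0 to day 3 and in 5 of the 12 others. CCGCCC was present in 44.9% of all and 65.7% of the 35, and CACCC in 58% and 62.9%. TATAAA on the forward strand was in 8.8% and 8.57%. Among the genes without CANNTG in this window were Scn4a, Ryr1, Cacnb1 and Bin1, which rose, and among those with CAGCTG were Sln and Pln, which were at or near 0. A match describes only these letters in this window.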

How the data were processed

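Poly(A) RNA of the 8 siCtrl and siKlf5 libraries had been sequenced from both ends. Per the labels and file headers, the authors aligned reads to mm9 with STAR and used HOMER to count them on RefSeq exons irrespective of strand, keeping at most 3 reads per position and 1 transcript per gene. The authors deposited FPKM values scaled to a matrix total of 10000000. The 8 deposited log2 columns were not used. The labels also name a DESeq2 normalization, which was not used here.

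Reads per transcript were recovered from these values and the exon length. Depths ranged from 7850497 to 20301506 reads per library. Intervals used reads divided by 6, where both libraries had at least 30 reads. For siCtrl day 2 the number of transcripts with 6 reads was 2.83 times that with 5. In the other libraries it was 6.16 to 10 times, and the same divisor was used for all.

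Tests used limma 3.58.1 in R 4.3.3 on log2(FPKM + 1), which understates changes of low genes, for 14312 transcripts whose mean was 1 or more. The additive model had day and siRNA terms and 3 residual degrees of freedom, and an effect that differed between days counted as error. Adjustment was by the Benjamini-Hochberg method over all 14312, with a threshold of 0.05. Differences within a day were counted past 1.5-fold, without a test. The fit was tested on simulated data. Alternatives were a pseudocount of 0.1, no filter or a mean of at least 10, median-ratio and upper-quartile scaling, a 2-fold limit, no trend, 1 term only, and days left out.

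All 35 genes were named. Of the other pathway genes, at most 6 with a mean of at least 10 and past 1.5-fold with the same sign on day 2 and day 3 were named by their day 3 ratio, together with Klf5, Myog and Myh3. Tmem38a and Dysf were chosen after their values were seen. The genes, lists and tests were chosen with earlier results of these data known. Windows around transcript starts were read from the mm9 genome with its GENCODE annotation. Python 3.11.15, pandas 2.3.3 and scipy 1.17.1 were used.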

Additional observations from a re-analysis of the deposited data

Results flagged for a closer look

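Trpc1 and Clcn1 passed 1.5-fold in opposite directions on different days. The log2 ratio of siKlf5 to siCtrl for Trpc1, a channel subunit linked to store-operated entry, was -0.71 on day 2, from 24 reads in siKlf5 cells, and 0.85 on day 3, from 22 reads in siCtrl cells. For Clcn1, the chloride channel of mature fibres, the ratio was -0.98 on day 0, from 24 reads in siCtrl and 8 in siKlf5 cells, and 1.55 on day 3, from 37 and 107 reads. The difference between days was not tested with replicates for either gene. As a linear slope over the days it gave 0.27 ± 0.37 per day for Trpc1 and 0.88 ± 0.39 per day for Clcn1 (limma adjusted p = 0.998 and 0.987).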

How the results depend on the processing

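Each siRNA and day had 1 library, so that spread within a condition was not measured, and genes with few reads (Pln, Atp2a3, Trpc1, Clcn1, Kcnj11) were limited by depth. The comparison of siKlf5 with siCtrl was paired by day through the day term. Under all alternatives run, 0 of the genes were called between siKlf5 and siCtrl, and between 18 (no filter) and 25 were called between day 3 and day 0, beside 24 in the values reported. The 20 genes that rose from day 0 to day 1 became 9 with no filter and 14 without the trend. Over all transcripts the 967 that rose in this step became 257 and 422. The 9 from day 1 to day 2 became 0 with no filter or no trend and 4 without the siRNA term. Over all transcripts the 175 that rose in this step became 11 with no filter, 0 with no trend and 65 without the siRNA term. Over all transcripts the calls between day 3 and day 0 went from 4444 to 2143 with no filter and 2926 without the trend, and the 10 between siKlf5 and siCtrl became 21 with a mean of at least 10 and 0 with no filter, no trend, no day term or any day left out. In the settings with 0 calls Klf5, the target of the siRNA, was not called either. The lack of calls there thus does not show that the genes were unchanged. On day 3, the 4 genes higher in siKlf5 cells became 1 with a mean of at least 10, and with a 2-fold limit 2 were higher and 0 lower, which follows from the stricter limits. With upper-quartile scaling the siKlf5 difference of Cacnb3 turned to 0.0077 and that of Hrc to 0.0051. With each day left out in turn, the siKlf5 differences of 14 genes, none of them called, changed sign, with ranges of -0.0822 to 0.0332 for Cacnb3, -0.0448 to 0.0446 for Hrc, -0.0145 to 0.0969 for Srl, -0.0875 to 0.1553 for Atp1b1, -0.0814 to 0.1321 for Orai1, -0.125 to 0.0796 for Cacna2d1, -0.0678 to 0.1826 for Ryr1, -0.1028 to 0.0795 for Jph1, -0.0669 to 0.3014 for Kcnj2, -0.0403 to 0.081 for Fkbp1a, -0.0299 to 0.0903 for Atp2a2, -0.4105 to 0.1086 for Trpc1, -0.0713 to 0.5821 for Atp2a3 and -0.005 to 0.8376 for Clcn1. Of the values of single genes under an alternative, 626 kept their direction and side of the threshold, 23 changed sign, 10 lost a call and 5 gained one. Leaving out day 1, day 2 or siCtrl day 2 from the comparison of day 3 with day 0 was chosen after seeing the data.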
